A study of Mus musculus with 9 samples.

Results

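The immunoglobulin genes of the mouse lung were followed in 9 RNA-seq libraries: the V (variable) and J (joining) gene segments, the constant regions and *Jchain*. Members were the rows whose symbol names a segment or constant region of the heavy, kappa or lambda locus, together with *Jchain*, and that held at least 10 counts summed over the 9 libraries. Of the 394 rows that matched by name, 136 reached this floor, out of 55359 genes in the table and 24728 genes with at least 10 counts. The members were 114 V segments (35 heavy, 76 kappa and 3 lambda), 10 J segments, 11 constant regions and *Jchain*. The 258 rows below the floor held 373 counts in all, against 70511 counts in the members. None of the 20 rows for D (diversity) segments reached the floor, nor did *Ighe*, the IgE constant region, with 5 counts, or *Iglc4* with 1. At the floor itself, *Ighv1-12* and *Igkv4-51* entered with 10 counts each, while *Ighv1-39* and *Ighv5-6* stayed out with 9 each.

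The libraries came from lungs of male C57BL/6J mice aged 6 to 8 weeks, taken at day 28. Control mice received saline into the trachea. Silica mice received 5 mg of silica by the same route, a model of silicosis, the fibrotic lung disease caused by inhaled silica dust. Silica + ATL-III mice received the same silica and 30 mg/kg per day of atractylenolide III, a plant lactone, by intraperitoneal injection. Each group had 20 mice and 3 libraries; the labels do not say whether a library was 1 mouse, so p-values measure only the spread between these libraries. ATL-III was not given alone, and the labels name no injected vehicle for Control and Silica, so injection and compound cannot be told apart.

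Each B cell joins 1 V segment to a J segment (with a D segment between them in the heavy chain) and transcribes the join together with a constant region. The heavy chain constant region sets the antibody class: *Ighm* for IgM, *Ighd* for IgD, *Igha* for IgA and the *Ighg* genes for IgG. Naive B cells carry IgM and IgD on their surface, whereas plasma cells secrete large amounts of antibody and hold correspondingly high levels of immunoglobulin mRNA. J chain is a small protein that links IgA into dimers and IgM into pentamers, and the epithelial receptor encoded by *Pigr* carries these polymers into mucus.

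In GENCODE M21 (GRCm38) the heavy chain genes lie on chr12:113254830-116010093, the kappa genes on chr6:67555497-70726966, the lambda genes on chr16:19061618-19260859 and *Jchain* on chr5:88519809-88527891. The 5 kappa J segments are shown because 2 of them were called lower in Silica + ATL-III. *Igkj3* was called against Silica and against Control, and *Igkj5* against Control alone. All lie on the plus strand of chromosome 6, between chr6:70722562-70722599 (*Igkj1*) and chr6:70723886-70723923 (*Igkj5*). Capitals mark the 4 codons that begin with TTC, the place of the conserved J motif.
Igkj1: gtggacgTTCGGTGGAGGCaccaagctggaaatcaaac
Igkj2: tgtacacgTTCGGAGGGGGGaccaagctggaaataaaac
Igkj3: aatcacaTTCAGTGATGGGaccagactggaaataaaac
Igkj4: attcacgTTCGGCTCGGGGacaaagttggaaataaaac
Igkj5: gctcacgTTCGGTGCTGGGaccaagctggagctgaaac
*Igkj3* is known as a J segment that is not used for functional kappa chains in the mouse.

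The lambda V segments are shown because *Iglv1* led the V repertoire while *Iglv3* was called lower, and because their similarity limits how reads can be assigned. These are the last 60 bases of each, with the codon of the conserved cysteine in capitals. They lie on the minus strand at chr16:19085017-19085500, chr16:19260401-19260859 and chr16:19241207-19241690.
Iglv1: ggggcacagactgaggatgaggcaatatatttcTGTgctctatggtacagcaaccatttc
Iglv2: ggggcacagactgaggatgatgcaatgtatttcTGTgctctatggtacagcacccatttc
Iglv3: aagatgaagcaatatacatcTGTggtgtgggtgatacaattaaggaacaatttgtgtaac
Over their longest annotated transcripts, *Iglv1* and *Iglv2* were 96.7% identical, and *Iglv1* and *Iglv3* 56.8%. *Iglc2* and *Iglc3* were 95.3% identical, *Ighg2b* and *Ighg2c* 87.8%, and *Igkv3-4* and *Igkv3-7* 89.1%. Values of such near copies are uncertain, since reads that fit more than 1 of them may be misplaced or dropped.

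The last 60 coding bases of the secreted forms of *Igha* and *Ighm* are shown because these tails bind J chain. Capitals mark the codon of the penultimate cysteine.
Igha: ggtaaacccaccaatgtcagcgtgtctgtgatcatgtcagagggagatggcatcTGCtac
Ighm: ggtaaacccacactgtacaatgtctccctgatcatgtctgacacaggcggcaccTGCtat

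Library totals ran from 16047175 to 17792481 counts, so depth was similar in all of them. The members themselves held from 1760 counts (Silica + ATL-III replicate 2) to 16838 counts (Control replicate 3). Their relative counting error therefore differed between libraries. Control replicate 3 stood apart: it gave the highest CPM (counts scaled to the library total) for 86 of 136 members and held 36.8% of all V segment counts. In the same library the summed CPM of 6 genes of follicular dendritic cells and lymph node stroma (5 found in the table) was 140, against 75.6 to 78.3 in the other Control libraries, and the summed CPM of 3 fat genes was 59.9 against 22.0 to 26.1. The part of these tissues in its immunoglobulin signal was not tested. The lung markers were present in every library, with a summed CPM of 7 alveolar genes between 28179 and 42044. Airway genes set Silica replicate 1 apart, with a summed CPM of 16957 for 3 genes against 34940 to 46100 in the 8 others; this library also had the highest *Igha* and *Jchain* levels. In Silica + ATL-III against Silica 7 of 7 neutrophil genes were called higher, where 7.43% of all genes tested were. They summed to 19597 to 29076 CPM in the Silica + ATL-III libraries, against 475 to 2822 in Silica and 377 to 2579 in Control. Their part in the lower B cell values of Silica + ATL-III was not tested. In whole lung RNA, fewer B cells and less RNA per B cell cannot be told apart.

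*Igha* was the clearest change among the members: it rose after silica and was lower again in Silica + ATL-III. Its deposited FPKM (counts scaled to exonic length and library total) was 3.51, 2.64 and 5.11 in Control, 22.55, 9.45 and 18.71 in Silica, and 4.81, 3.96 and 5.65 in Silica + ATL-III. All 3 Silica libraries lay above all Control and all Silica + ATL-III libraries, whereas the latter groups overlapped. The means were 3.75 ± 1.25, 16.9 ± 6.73 and 4.81 ± 0.845 FPKM (SD, n = 3 each). Between Silica and Control the edgeR log2 fold change was 2.30 ± 0.30 (SE), with an adjusted p of 0.00043 (quasi-likelihood test, Benjamini-Hochberg over 24728 genes), a 4.94-fold increase. For Silica + ATL-III against Silica it was -1.80 ± 0.30 (edgeR adjusted p = 0.0011). Silica + ATL-III against Control gave 0.50 ± 0.31 (edgeR adjusted p = 0.36). The first call held under 21 of 21 alternative analyses and the other under 20 of 20, leaving out each library included.

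**Figure D1:**
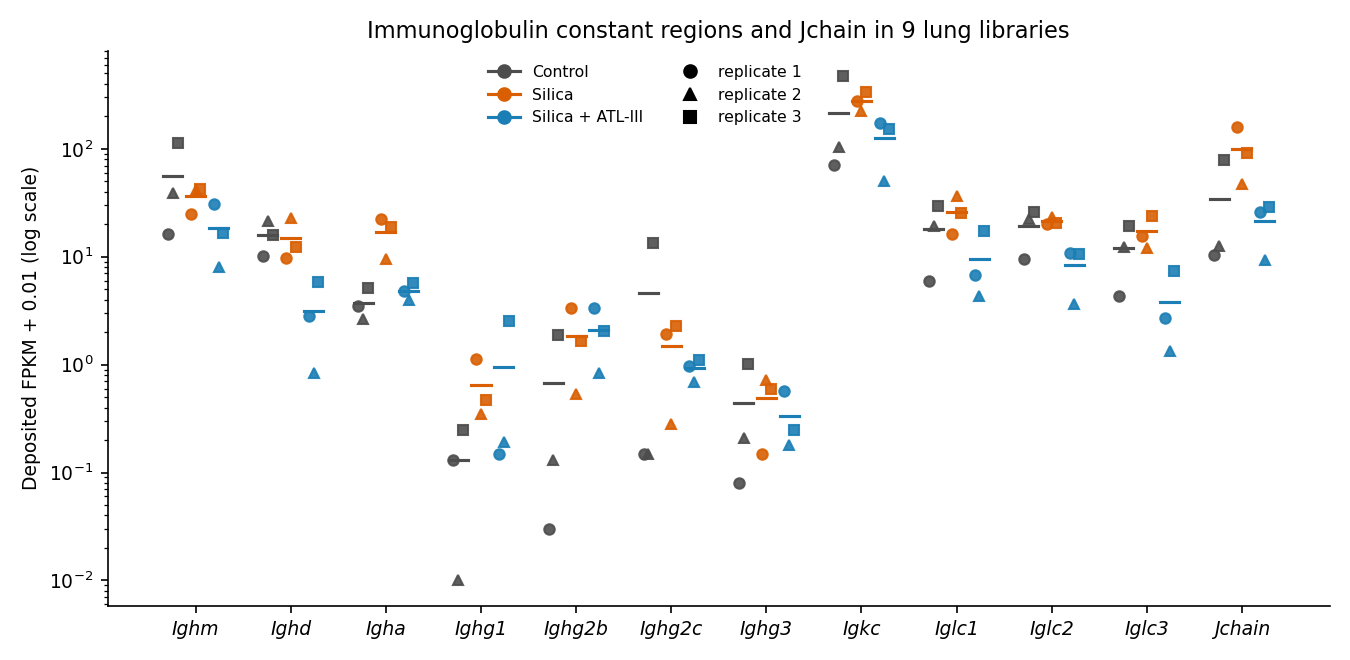
Deposited FPKM plus 0.01 on a log axis for the 11 constant regions and *Jchain*; each symbol is 1 library (circle, triangle and square for replicates 1, 2 and 3) and each line a group mean. The 3 Silica libraries of *Igha* (9.45 to 22.55 FPKM) lie above the 6 others (2.64 to 5.65 FPKM), and the 3 Silica + ATL-III libraries of *Ighd* lie below the 6 others.

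*Jchain* had the most counts of any member, 19924 in all, and it took a larger part of the immunoglobulin signal after silica. Its FPKM was 10.31, 12.53 and 79.07 in Control, 158.68, 47.38 and 92.33 in Silica, and 26.22, 9.25 and 29.15 in Silica + ATL-III. The Silica libraries were all above the Silica + ATL-III libraries, and Control replicate 3 fell among the Silica values. It was lower in Silica + ATL-III than in Silica, with a log2 fold change of -2.21 ± 0.67 (edgeR adjusted p = 0.041). That call was lost under 10 of 20 alternatives, among them DESeq2 (adjusted p = 0.080) and edgeR without Silica replicate 1 (0.18) or 3 (0.084), or without Silica + ATL-III replicate 1 (0.089), 2 (0.15) or 3 (0.050). After silica the log2 fold change was 1.70 ± 0.65 (edgeR adjusted p = 0.12). It was called when Control replicate 3 was left out, at 3.27 (edgeR adjusted p = 0.0032), and with the replicate number as a block, at 2.00 (edgeR adjusted p = 0.021). *Jchain* made up 16.3%, 11.1% and 19.2% of all member counts in Control, 51.3%, 23.1% and 33.5% in Silica, and 20.0%, 22.2% and 25.3% in Silica + ATL-III. Its share in every Control library was below that in every Silica library.

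*Ighd* moved differently from *Igha*: it did not differ after silica and was lower in Silica + ATL-III than in both other groups. Its FPKM was 10.09, 21.32 and 15.92 in Control, 9.77, 22.60 and 12.42 in Silica, and 2.84, 0.82 and 5.77 in Silica + ATL-III. No Silica + ATL-III library reached the lowest library of either other group. The log2 fold change was -2.20 ± 0.46 against Silica (edgeR adjusted p = 0.0058) and -2.17 ± 0.46 against Control (edgeR adjusted p = 0.0070), while Silica against Control gave 0.03 ± 0.42 (edgeR adjusted p = 0.98). With a robust quasi-likelihood fit the adjusted p values were 0.086 against Silica and 0.11 against Control; the other 19 of 20 alternatives kept each call.

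*Ighm*, which encodes the IgM heavy chain, passed no test. Its FPKM was 16.37, 38.99 and 112.34 in Control, 25.02, 41.78 and 42.58 in Silica, and 30.89, 8.04 and 16.63 in Silica + ATL-III, and the groups overlapped in all 3 comparisons. The log2 fold change of Silica + ATL-III against Control was -1.45 ± 0.53 (edgeR adjusted p = 0.11), and without Control replicate 1 it was -1.89 (edgeR adjusted p = 0.019).

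The 4 IgG genes passed no test in the 9-library fit. *Ighg2c* had counts of 3, 3 and 288 in Control, 44, 6 and 54 in Silica, and 21, 15 and 24 in Silica + ATL-III, so that 62.9% of its counts lay in Control replicate 3. Its log2 fold change in Silica against Control turned from -1.47 ± 1.07 (edgeR adjusted p = 0.43) to 3.50 without that library (edgeR adjusted p = 0.033). *Ighg2b* had 1, 5 and 81 counts in Control, 157, 24 and 78 in Silica, and 145, 37 and 91 in Silica + ATL-III. Without Control replicate 3 it was called higher in Silica than in Control, at 4.83 (edgeR adjusted p = 0.014), and higher in Silica + ATL-III than in Control, at 4.99 (edgeR adjusted p = 0.0055); with all libraries the values were 1.61 ± 0.88 (0.27) and 1.77 ± 0.88 (0.25). *Ighg1* had 5, 0 and 10 counts in Control, 50, 15 and 21 in Silica, and 6, 8 and 108 in Silica + ATL-III. Every Silica library exceeded every Control library for *Ighg1*, at a log2 fold change of 2.53 ± 1.08 (edgeR adjusted p = 0.16; 0.039 without Silica + ATL-III replicate 3, and 0.0078 with the replicate block in the 6 libraries compared). Against Control, Silica + ATL-III gave 3.12 ± 1.06 for *Ighg1* (edgeR adjusted p = 0.081; 0.037 without Silica + ATL-III replicate 1 and 0.046 without replicate 2). *Ighg3* had 3 to 41 counts per library, with log2 fold changes between -0.52 and 0.26.

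Among the light chains, *Igkc*, the kappa constant region, had the highest FPKM of all constant regions in every library. It measured 70.39, 104.13 and 473.18 FPKM in Control, 274.91, 222.81 and 337.33 in Silica, and 174.37, 49.85 and 151.25 in Silica + ATL-III. Its Silica + ATL-III libraries lay below its Silica libraries, but the log2 fold change of -1.13 ± 0.55 did not pass (edgeR adjusted p = 0.20). It did pass without Control replicate 3 (0.036), a library outside that comparison that enters through the shared spread, and in a fit of only the 6 libraries compared (0.043). After silica *Igkc* was at 0.49 ± 0.55 (edgeR adjusted p = 0.63), and 1.80 without Control replicate 3 (edgeR adjusted p = 0.020). With the replicate block and the 6 libraries compared alone it was 0.97 (edgeR adjusted p = 0.027).

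2 of the 3 lambda constant regions were lower in Silica + ATL-III than in Silica. *Iglc3* had 15.51, 12.11 and 23.75 FPKM in Silica and 2.72, 1.32 and 7.37 in Silica + ATL-III, a log2 fold change of -2.14 ± 0.54 (edgeR adjusted p = 0.017). *Iglc2* had 20.09, 23.13 and 20.66 FPKM in Silica and 10.93, 3.61 and 10.49 in Silica + ATL-III, at -1.33 ± 0.36 (edgeR adjusted p = 0.024). Neither pair of groups overlapped. The *Iglc3* call was lost without Silica replicate 3 (0.079) or without Silica + ATL-III replicate 1 (0.067) or 2 (0.073). A robust quasi-likelihood fit lost it as well (0.10). The *Iglc2* call was lost without Silica replicate 1 (0.063) or 3 (0.064), without Silica + ATL-III replicate 2 (0.079), and with limma on log2(FPKM + 0.5) (0.070). It was also lost with limma on log2(FPKM + 0.1) (0.068) and with the robust fit (0.095). *Iglc1* was at -1.41 ± 0.50 (edgeR adjusted p = 0.080), and passed without Silica + ATL-III replicate 3 (0.012) or Control replicate 1 (0.036), and in a fit of only the 6 libraries compared (0.040). No lambda constant region was called in Silica against Control, with log2 fold changes from 0.27 to 0.64 (lowest edgeR adjusted p = 0.45); with the replicate block in the 6 libraries compared, *Iglc1* was called at 0.77 (0.033).

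**Figure D2:**
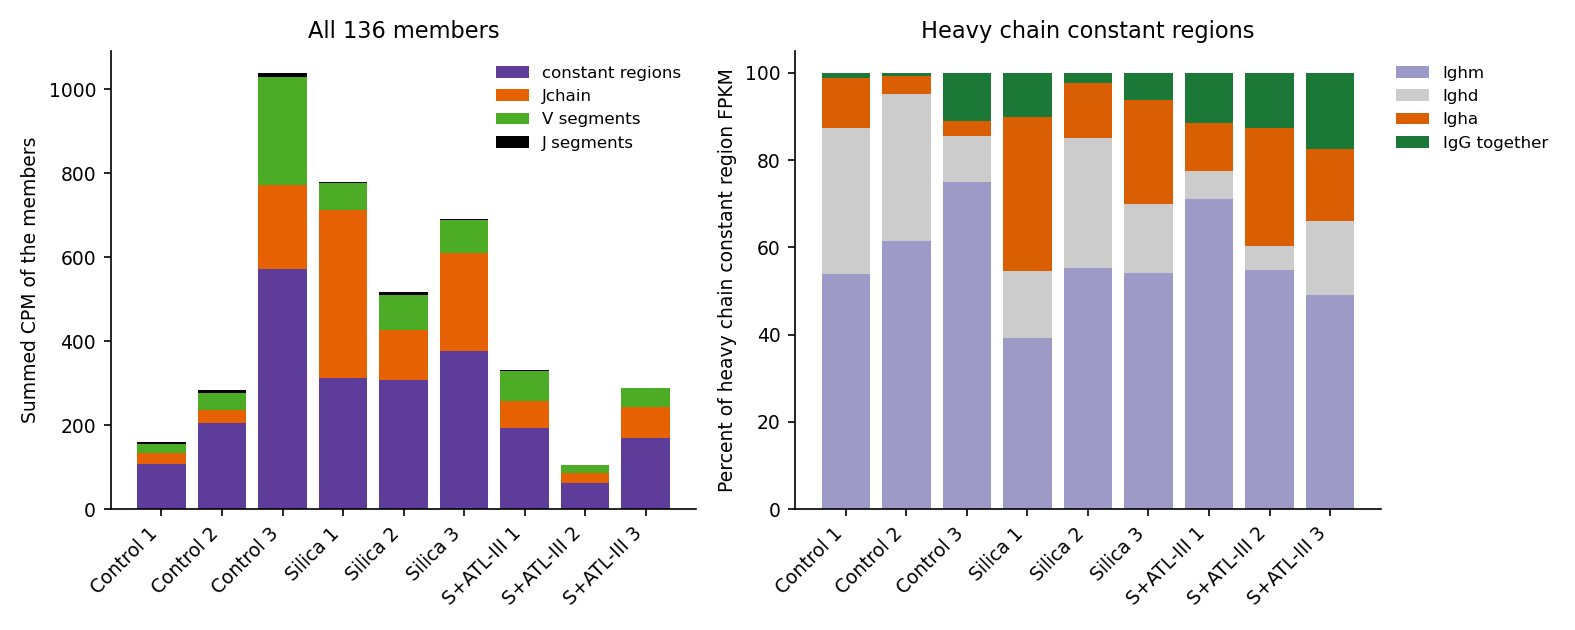
Left, summed CPM of the 136 members in each library, stacked by kind. Right, percent of the summed FPKM of the heavy chain constant regions. Control 3 reaches 1039 CPM on the left; on the right the *Igha* part is 12.5% to 35.3% in Silica and 3.41% to 11.6% in Control.

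The class makeup of the heavy chain signal, taken per length as FPKM, followed from these values. *Igha* made up 11.6%, 4.16% and 3.41% in Control, 35.3%, 12.5% and 23.8% in Silica, and 11%, 27.0% and 16.6% in Silica + ATL-III. Every Silica library had a larger *Igha* share than every Control library, and Silica and Silica + ATL-III overlapped. The 4 IgG genes together made up 1.15%, 0.725% and 11% in Control, 10.2%, 2.44% and 6.32% in Silica, and 11.5%, 12.7% and 17.4% in Silica + ATL-III. Here every Silica + ATL-III library was above the 6 others, the closest being Control replicate 3. *Ighd* made up 33.3%, 33.6% and 10.6% in Control, 15.3%, 29.9% and 15.8% in Silica, and 6.52%, 5.59% and 17.0% in Silica + ATL-III, and overlapped in all comparisons. *Ighm* had the largest share in every library, from 39.2% to 74.9%.

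Over all members, the call counts were small. In Silica against Control edgeR called 2 of 136 members higher (*Igha* and *Igkv1-88*) where 5.61% of all genes tested were called higher, and 0 lower where 3.95% of all genes were; at an unadjusted p under 0.05 the numbers were 11 and 16, and DESeq2 called 3 higher and 1 lower. Whether replicate numbers of these 2 groups pair was not settled by the check described in the processing section. With the number as a block edgeR called 4 higher and 0 lower in the 9-library fit, and 9 higher and 2 lower with the 6 libraries compared alone, *Igha*, *Igkv1-88* and *Jchain* among the 9. Without Control replicate 3 it called 6 higher (*Igha*, *Ighg2b*, *Ighg2c*, *Igkc*, *Igkv1-88* and *Jchain*), without Silica + ATL-III replicate 3 it called 4 higher, and without Control replicate 1 or 2 it called 3 and 1 lower. The shares of all genes belong to the main edgeR test alone. For the unadjusted p, DESeq2, the block and the fits without a library, the share of all genes was not counted. Those counts of members therefore cannot be judged as high or low.

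In Silica + ATL-III against Silica edgeR called 11 members lower (8.09%; 6.26% of all genes) and 0 higher (7.43% of all genes); at an unadjusted p under 0.05 the numbers were 23 and 2, and DESeq2 called 13 and 0. The 11 were *Igha*, *Ighd*, *Iglc2*, *Iglc3*, *Jchain*, *Igkj3* and 5 V segments. The number lower fell to 3 without Silica replicate 3, 4 without Silica + ATL-III replicate 1 and 2 without replicate 2. Against Control, edgeR called 8 members lower in Silica + ATL-III (5.88%; 4.07% of all genes) and 0 higher (6.27% of all genes); at an unadjusted p under 0.05 the numbers were 36 and 2, and DESeq2 called 8 and 0. The 8 were *Ighd*, *Igkj3*, *Igkj5* and 5 V segments. Their number was 17 without Control replicate 1, 3 without Control replicate 3, and 2, 3 and 4 without Silica + ATL-III replicates 1, 2 and 3. The Silica + ATL-III libraries are shared by both of these comparisons. Here too the shares of all genes belong to the main edgeR test alone. They are no background for the counts at an unadjusted p, with DESeq2 or without a library.

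The median log2 fold change of the 136 members was -0.54 in Silica against Control, -0.71 in Silica + ATL-III against Silica and -1.27 in Silica + ATL-III against Control, beside 0.00 over all genes tested in each. Without Control replicate 3 the first and the last turned to 1.20 and 0.62. With members that had 0 counts in a group set at their bound, the medians were -0.54, -0.70 and -1.21. Scaling by library totals alone moved the median of all genes to -0.12 in Silica against Control and -0.15 in Silica + ATL-III against Control. The floor on counts selects members that were high in at least 1 library, so these medians describe the members kept and nothing below the floor.

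**Figure D3:**
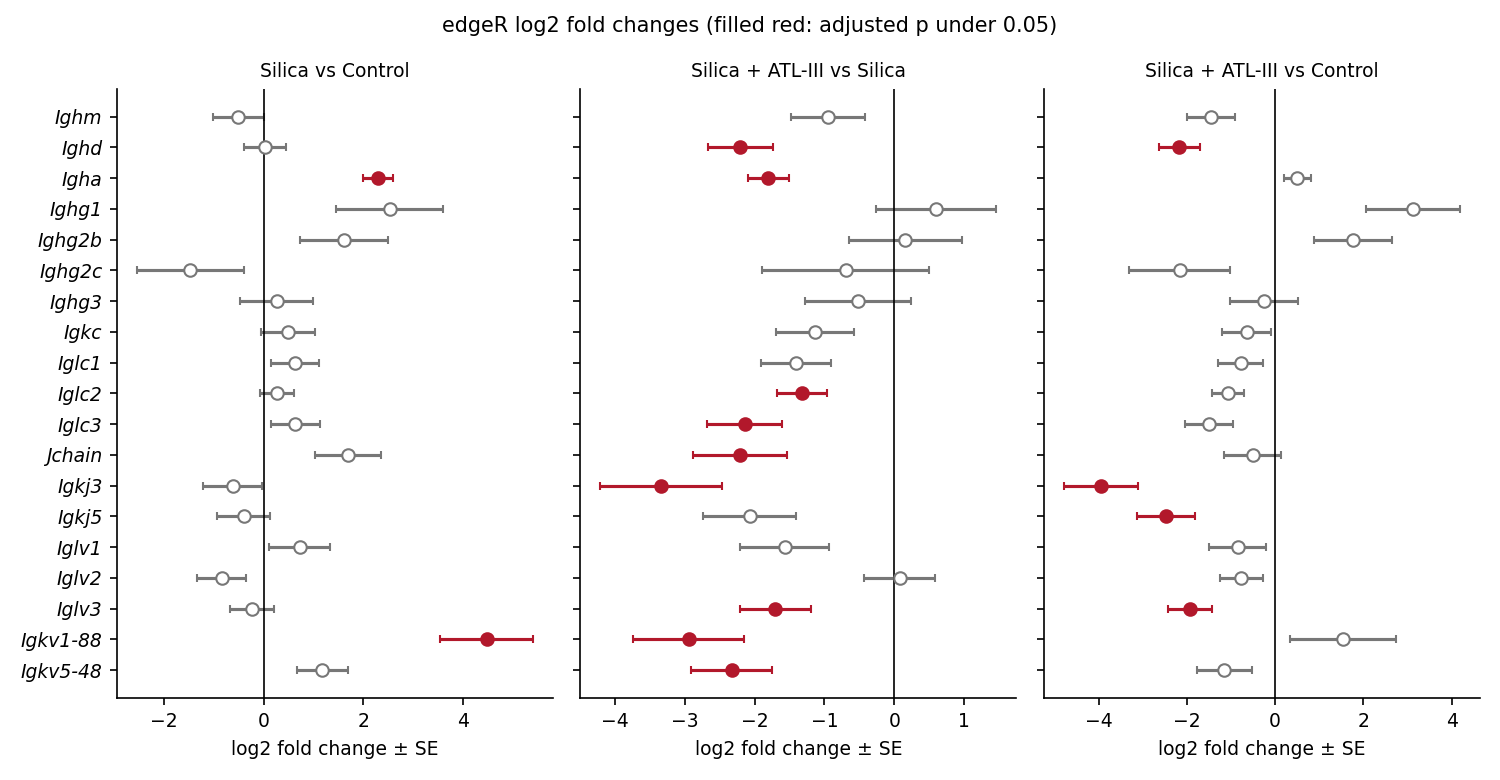
edgeR log2 fold changes with their SE for the constant regions, *Jchain* and 7 named segments in the 3 comparisons; filled red points have an adjusted p under 0.05. *Igha* is filled on the right of 0 in Silica against Control and on the left in Silica + ATL-III against Silica; *Ighd* is filled in both comparisons of Silica + ATL-III.

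Summed over the members, the signal was 159, 285 and 1039 CPM in Control, 779, 516 and 693 CPM in Silica, and 330, 105 and 290 CPM in Silica + ATL-III. All Silica libraries were above all Silica + ATL-III libraries, and Control had values both above and below those of Silica. The log2 ratio of mean summed CPM was 0.42 for Silica against Control, and 1.58 without Control replicate 3. It was -1.46 for Silica + ATL-III against Silica, with -1.23 for the constant regions alone and -0.76 for the V segments alone. For Silica + ATL-III against Control it was -1.03, and 0.12 without Control replicate 3.

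All 10 J segments had a log2 fold change below 0 in both comparisons of that group, with medians of -1.25 against Silica and -2.40 against Control, although only *Igkj3* and *Igkj5* passed. Over the V segments the same medians were -0.46 and -1.21, and over the constant regions -1.13 and -0.78. The J segments held 31 to 172 counts per library in Control and Silica and 8 to 30 in Silica + ATL-III. Scaled to library totals, Silica and Silica + ATL-III overlapped, with 1.78 CPM in Silica replicate 1 and 1.84 CPM in Silica + ATL-III replicate 1. Control, at 2.74 to 10.6 CPM, lay above Silica + ATL-III. *Igkj3* had 8, 20 and 28 counts in Control, 5, 20 and 11 in Silica, and 1, 0 and 2 in Silica + ATL-III, without overlap of the last group with either other. Its log2 fold change was -3.33 ± 0.87 against Silica (edgeR adjusted p = 0.020) and -3.95 ± 0.84 against Control (edgeR adjusted p = 0.0069). The latter call held under 20 of 20 alternatives; the former was lost without Silica replicate 2 (0.063) or without Silica + ATL-III replicate 1 (0.063) or 2 (0.083). *Igkj5* had 10, 22 and 36 counts in Control, 6, 26 and 19 in Silica, and 5, 2 and 4 in Silica + ATL-III. Against Control it was lower, at -2.47 ± 0.65 (edgeR adjusted p = 0.024), a call lost without Control replicate 2 (0.051) or 3 (0.12) and without each Silica + ATL-III library (0.051, 0.096 and 0.056). Against Silica it was at -2.07 ± 0.66 (edgeR adjusted p = 0.052), and passed without Control replicate 1 (0.041) or 3 (0.049) or without Silica replicate 1 (0.026). *Igkj4*, the neighbour between these, had 11, 22 and 34 counts in Control, 7, 25 and 13 in Silica, and 12, 0 and 5 in Silica + ATL-III, and passed no test.

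**Figure D4:**
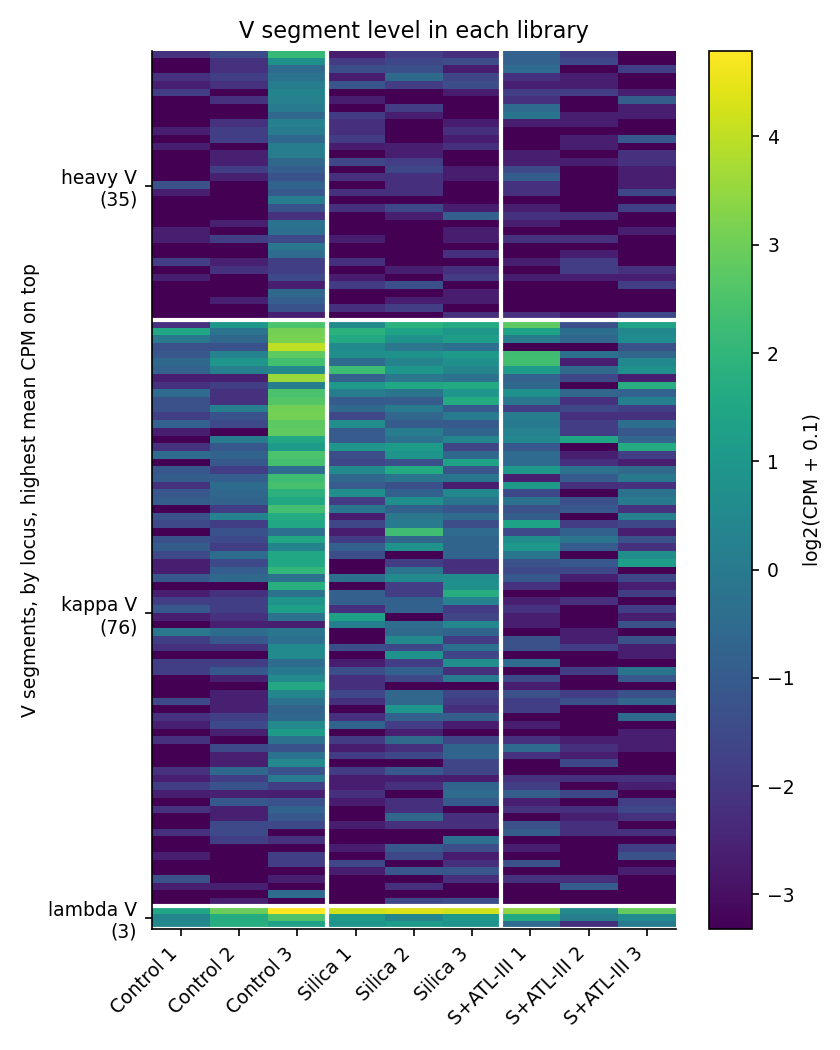
log2(CPM + 0.1) of the 114 V segments (rows, by locus and by mean CPM) in the 9 libraries (columns). The Control 3 column is the brightest for 75 of the 114 rows, and the top lambda row, *Iglv1*, is bright in all 3 Silica columns.

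The V segments held 11356 counts, of which 8080 were kappa, 2497 lambda and 779 heavy. The leading segment was *Iglv1* in 7 of 9 libraries; in Control replicate 1 it was *Igkv1-110* with 46 counts and in Silica + ATL-III replicate 2 *Igkv8-27* with 44. *Iglv1* had 44, 122 and 447 counts in Control, 320, 347 and 329 in Silica, and 174, 22 and 117 in Silica + ATL-III. Its 3 Silica libraries differed little among themselves and all lay above Silica + ATL-III, yet no comparison passed: -1.57 ± 0.64 against Silica (edgeR adjusted p = 0.12; 0.040 without Control replicate 3 and 0.032 with only the 6 libraries compared) and 0.72 ± 0.61 for Silica against Control (edgeR adjusted p = 0.50; 0.040 with the replicate block in the 6 libraries compared). *Iglv3* was called lower in Silica + ATL-III, with 21, 52 and 40 counts in Control, 30, 35 and 30 in Silica, and 10, 2 and 15 in Silica + ATL-III. Its log2 fold changes were -1.70 ± 0.51 against Silica (edgeR adjusted p = 0.039) and -1.93 ± 0.51 against Control (edgeR adjusted p = 0.024). The first call was lost under 8 of 20 alternatives, with adjusted p up to 0.12 without Silica + ATL-III replicate 2, and also without Silica + ATL-III replicate 1 (0.085) or Silica replicate 1 (0.088), 2 (0.072) or 3 (0.083). The other was lost without Control replicate 2 (0.10) or 3 (0.065) or Silica + ATL-III replicate 1 (0.061) or 2 (0.068). It was also lost in a fit of only the 6 libraries compared (0.051). *Iglv2*, the near copy of *Iglv1*, had 20, 51 and 92 counts in Control, 35, 20 and 34 in Silica, and 48, 16 and 24 in Silica + ATL-III, with a log2 fold change of 0.08 ± 0.51 in Silica + ATL-III against Silica.

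Among the kappa V segments, *Igkv1-88* had few counts outside Silica. It had 0, 1 and 1 counts in Control, 18, 11 and 23 in Silica, and 1, 0 and 5 in Silica + ATL-III. Its counts outside Silica alone would not have reached the count floor. The log2 fold change was 4.48 ± 0.93 in Silica against Control (edgeR adjusted p = 0.0095), a call that held under 20 of 20 alternatives that gave a p. DESeq2 was not among these and did not call *Igkv1-88* in that comparison. Between Silica + ATL-III and Silica the log2 fold change was -2.94 ± 0.79 (edgeR adjusted p = 0.024). The latter call was lost without Silica replicate 1 (0.071) or 3 (0.098) and without Silica + ATL-III replicate 1 (0.084) or 2 (0.082). *Igkv5-48* had 12, 23 and 26 counts in Silica and 6, 1 and 4 in Silica + ATL-III, at -2.33 ± 0.58 (edgeR adjusted p = 0.016), lost without Silica replicate 3 or Silica + ATL-III replicate 2 (both 0.067). *Igkv4-57-1* was called lower too, at -4.23 ± 1.28 (edgeR adjusted p = 0.042), but its groups overlapped and 66.3% of its counts lay in Silica replicate 3; it is named here to complete the 5.

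3 members of the *Igkv3* family, which lie near the J segments on chromosome 6, were among the 8 called lower in Silica + ATL-III against Control. *Igkv3-7* had 2, 9 and 5 counts in Control, 3, 6 and 4 in Silica and 0 in all Silica + ATL-III libraries, which is at least 5.43-fold lower than Control and at least 4.13-fold lower than Silica, taking 3 counts in the group as the limit that 0 allows. The edgeR adjusted p was 0.027 against Control and 0.032 against Silica. The call against Silica was lost on leaving out any of the 6 libraries compared (0.056 to 0.088), and that against Control without Control replicate 2 (0.097) or 3 (0.062) or any Silica + ATL-III library (0.059 to 0.070). *Igkv3-2* had 5, 16 and 134 counts in Control and 3, 4 and 3 in Silica + ATL-III (edgeR adjusted p = 0.022; 0.27 without Control replicate 3, and 0.065 to 0.079 without any 1 Silica + ATL-III library). *Igkv3-4* had 5, 5 and 260 counts in Control, 24, 14 and 12 in Silica, and 0, 0 and 5 in Silica + ATL-III (edgeR adjusted p against Control = 0.029; 0.54 without Control replicate 3, and 0.051 to 0.11 without any 1 Silica + ATL-III library). *Igkv8-19* did not lean on that library, with 14, 10 and 13 counts in Control against 0, 1 and 0 in Silica + ATL-III, a log2 fold change of -4.67 ± 1.16 (edgeR adjusted p = 0.018). Its call was lost without Control replicate 1 (0.050) or Silica + ATL-III replicate 1 (0.066) or 3 (0.056). The *Igkv3-2* and *Igkv3-4* calls were also lost with limma (adjusted p = 0.11 to 0.19) and the robust edgeR fit (0.12 and 0.20). In fits of only the 6 libraries compared, edgeR lost *Igkv3-4* (0.063) and *Igkv3-7* (0.052 against Control and 0.055 against Silica).

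How far Control replicate 3 decided single V segments is seen in those with the largest part of their counts in 1 library. Of 14 V segments with at least 200 counts, 2 had over 50% in 1 library, and both had it in Control replicate 3: *Igkv3-4* with 80.0%, and *Igkv4-59* with 79.3% (1, 1 and 192 counts in Control, 8, 14 and 13 in Silica, and 8, 4 and 1 in Silica + ATL-III). *Igkv8-30* had 48.1% of its counts there and *Igkv10-96* 43.1%. Of all 114 V segments 35 had over 50% of their counts in that library, and it was the highest for 30 of 35 heavy V segments. The abundant *Igkv1-117* did not follow it: its highest library was Silica + ATL-III replicate 1, with 108 counts, against 90 in Control replicate 3. *Igkv1-110* had 46, 12 and 136 counts in Control, 61, 42 and 33 in Silica, and 41, 11 and 21 in Silica + ATL-III.

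The effective number of V segments, the inverse Simpson index that gives the number of equally used segments with the same evenness, was 22.5, 17.2 and 32.6 in Control, 9.95, 13.4 and 14.4 in Silica, and 19.2, 25.7 and 20.5 in Silica + ATL-III. The Silica libraries lay below the 6 others. In Silica the leading segment, *Iglv1*, took 28.5%, 24.4% and 23.4% of V segment counts, against 10.7% to 18.8% for the leading segment in Control and 14.0% to 15.6% in Silica + ATL-III. Over the 111 heavy and kappa V segments alone, the effective number was 24.0, 41.1 and 39.7 in Control, 24.5, 36.5 and 38.5 in Silica, and 23.2, 24.0 and 26.9 in Silica + ATL-III, so that Silica and Control overlapped. By the exponential of the Shannon entropy, Silica (25.0 to 36.3) overlapped with Silica + ATL-III (34.7 to 39.7). These numbers describe bulk reads of V segments and not counted clones.

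**Figure D5:**
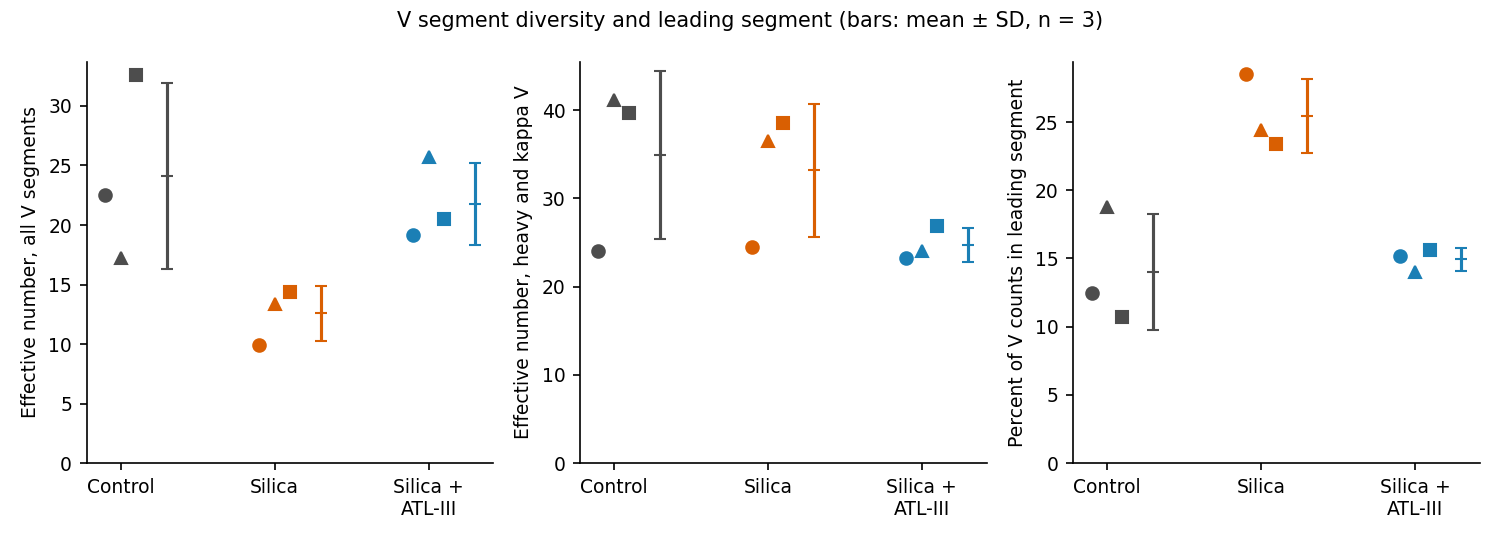
Effective number of V segments over all 114 and over the 111 heavy and kappa segments, and percent of V segment counts in the leading segment; symbols are libraries (circle, triangle and square for replicates 1, 2 and 3) and bars the mean ± SD of 3. The Silica libraries are lowest on the left (9.95 to 14.4) and highest on the right (23.4% to 28.5%), and overlap with Control in the middle.

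Genes of B cell identity and of the B cell receptor were lower in Silica + ATL-III. Against Silica, 19 of 20 were called lower (6.26% of all genes) and *Cd37*, a tetraspanin of several leukocyte types, higher (7.43% of all genes). The median log2 fold change was -1.84 beside 0.00 over all genes. Against Control 15 were lower (4.07% of all genes) and *Cd37* higher (6.27% of all genes), with a median of -1.82. After silica 2 were higher, *Blnk* and *Cd83* (5.61% of all genes), and 0 lower (3.95% of all genes), with a median of 0.01. At edgeR adjusted p of 0.054 and 0.068 the *Blnk* call was lost without Control replicate 1 and Silica replicate 1. That of *Cd83* was lost without Silica replicate 3 (0.050). The *Cd37* call against Silica was lost without Silica replicate 1 (0.070) or 3 (0.061), and with the robust quasi-likelihood fit (0.052). Limma on log2(FPKM + 0.5) lost *Blnk* (0.063) and *Cd83* (0.052) after silica. It also lost *Cd37* against Silica (0.077) and against Control (0.075). *Cd22*, an inhibitory receptor of B cells, had 10.7, 16 and 20.2 CPM in Control, 14.0, 16.5 and 13.4 in Silica, and 4.97, 3.17 and 4.90 in Silica + ATL-III. Its log2 fold change against Silica was -1.73 ± 0.23 (edgeR adjusted p = 0.00026). The neutrophil sums given above went the other way and were higher in Silica + ATL-III. Sums of other lymphoid markers were lower there than in Silica. The 7 genes of the thymus list summed to 8.12 to 15.5 CPM in Silica + ATL-III, against 20.8 to 23.5 in Silica and 16.6 to 20.7 in Control. The 6 T cell genes summed to 13.1 to 24.0 CPM, against 26 to 42.5 in Silica and, with overlap, 19.7 to 32.0 in Control. As single genes, 1 of the thymus list was called lower against Silica and 0 against Control. Of the T cell genes 0 were called lower in either comparison. The part of these cells in the result was not tested.

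Genes of plasma cells were called in both directions. After silica 3 of 18 were higher (*Fkbp11*, *Sec11c* and *Slamf7*; 5.61% of all genes) and *Mzb1* lower (3.95% of all genes), with a median log2 fold change of 0.11. In Silica + ATL-III against Silica *Xbp1* was higher (7.43% of all genes) and 4 were lower (*Ell2*, *Pou2af1*, *Sdc1* and *Slamf7*; 6.26% of all genes), with a median of -0.17. In Silica + ATL-III against Control *Cd38* and *Xbp1* were higher (6.27% of all genes) and *Pou2af1* lower (4.07% of all genes), with a median of 0.075. Of 20 alternatives, 9 lost the *Cd38* call, 5 that of *Xbp1* and 6 that of *Pou2af1*. *Slamf7*, a surface receptor also found on other immune cells, had 6.58, 8.79 and 10.4 CPM in Control, 26.5, 14.6 and 24.7 in Silica, and 15.0, 7.53 and 9.57 in Silica + ATL-III. Its log2 fold change was 1.48 ± 0.27 after silica (edgeR adjusted p = 0.0047) and -1.02 ± 0.27 in Silica + ATL-III against Silica (edgeR adjusted p = 0.020), the latter lost without Silica replicate 1 (0.098) or 3 (0.081) or Silica + ATL-III replicate 2 (0.097) or 3 (0.052). The *Mzb1* call was lost on leaving out any of the 6 libraries compared (0.064 to 0.16) and with the replicate block (0.069), that of *Fkbp11* without Control replicate 2 (0.11) or 3 (0.081) or Silica replicate 1 (0.15) or 3 (0.083), that of *Ell2* without Silica replicate 1 (0.057), and that of *Xbp1* without Silica replicate 2 (0.054) or 3 (0.081) or Silica + ATL-III replicate 2 (0.081). Limma on log2(FPKM + 0.5) lost *Fkbp11* after silica (0.086). In Silica + ATL-III against Silica it lost *Slamf7* (0.066) and *Pou2af1* (0.051). In that comparison edgeR lost *Xbp1* with only the 6 libraries compared (0.068) and *Pou2af1* with the robust fit (0.088). *Tnfrsf17*, which encodes the plasma cell receptor BCMA, stayed under 1 CPM in every library and passed no test. *Xbp1* had 176 to 255 CPM and *Sdc1* 119 to 245 CPM over the libraries. Which cells of the lung gave the signal of this list was not tested.

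The epithelial transporter of IgA and IgM was higher after silica, as *Igha* was. Within Silica these genes did not keep step: *Igha* CPM divided by *Pigr* CPM was 0.57, 0.18 and 0.243. *Pigr* had 70.6, 53.1 and 78.7 CPM in Control, 106, 140 and 206 in Silica, and 133, 79.2 and 92.2 in Silica + ATL-III. Silica lay above Control without overlap, at a log2 fold change of 1.27 ± 0.23 (edgeR adjusted p = 0.0040), and Silica + ATL-III against Silica gave -0.54 ± 0.22 (edgeR adjusted p = 0.13). *Fcamr*, a receptor for IgA and IgM, was higher than in Control in Silica (1.02 ± 0.22, edgeR adjusted p = 0.011; lost without Control replicate 2 at 0.052 or Silica replicate 3 at 0.055) and in Silica + ATL-III (1.03 ± 0.22, edgeR adjusted p = 0.0066). Limma on log2(FPKM + 0.5) lost the *Fcamr* call in Silica as well (0.052). *Fcgrt*, the IgG transporter, was not called.

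Of 15 factors that attract or sustain B cells and plasma cells, 2 rose in Silica against Control (*Il6* and *Cxcl12*; 5.61% of all genes) and 5 were lower in Silica + ATL-III against Silica (*Ccl21a*, *Ccr7*, *Cxcl12*, *Il6* and *Tnfsf13b*; 6.26% of all genes). The *Ccl21a* call was lost without Silica replicate 3 (0.11) or Silica + ATL-III replicate 1 (0.050) or 3 (0.071). Limma on log2(FPKM + 0.5) lost it as well (0.056). In Silica + ATL-III against Control *Ccl21a* and *Ccr10* were lower (4.07% of all genes) and 0 higher (6.27% of all genes). The *Ccr10* call was lost under 14 of 19 alternatives. *Il6*, a cytokine that supports plasma cells, had 0.548, 0.436 and 0.185 CPM in Control, 1.9, 2.08 and 2.02 in Silica, and 0.553, 0.418 and 0.484 in Silica + ATL-III, with Silica above all other libraries. Its log2 fold changes were 2.45 ± 0.42 after silica (edgeR adjusted p = 0.0028) and -2.0 ± 0.40 in Silica + ATL-III against Silica (edgeR adjusted p = 0.0044). *Tnfsf13b*, the B cell survival factor BAFF, had 26.8, 25.5 and 26.5 CPM in Silica and 18.2, 14.2 and 13.1 in Silica + ATL-III, at -0.77 ± 0.16 (edgeR adjusted p = 0.0044). *Cxcl13*, the chemokine of B cell follicles, had 6.88, 4.42 and 43.1 CPM in Control, 12, 9.22 and 6.13 in Silica, and 36.0, 12.4 and 11.9 in Silica + ATL-III and passed no test; its highest library was again Control replicate 3. The *Cxcl12* call after silica was lost without any 1 Control library (0.056 to 0.060) and without Silica replicate 1 (0.093) or 3 (0.058). It was also lost with limma on log2(FPKM + 0.5) (0.10) and with the robust quasi-likelihood fit (0.066).

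Of 8 genes of class switching and germinal centres, *S1pr2* was higher in Silica than in Control (5.61% of all genes were called higher there). In Silica + ATL-III against Silica *S1pr2* was lower (6.26% of all genes) and *Bcl6* higher (7.43% of all genes), and *Bcl6* was also higher in Silica + ATL-III against Control (6.27% of all genes). Of 7 genes of the surrogate light chain and of V(D)J rearrangement, 5 had enough counts to be tested, and only *Vpreb3* was called, higher in Silica + ATL-III against Control. Limma on log2(FPKM + 0.5) lost *S1pr2* after silica (0.10) and against Silica (0.050). It also lost *Bcl6* against Silica (0.051) and against Control (0.11). Scaling by library totals alone lost *S1pr2* after silica (0.053) and *Bcl6* against Control (0.056). Leaving out 1 library ended several of these calls: *S1pr2* after silica without any 1 Control library (0.058 to 0.11) or Silica replicate 1 (0.088) or 3 (0.062), *S1pr2* in Silica + ATL-III against Silica without Silica replicate 1 (0.081) or 3 (0.065) or Silica + ATL-III replicate 1 (0.080) or 2 (0.11), *Bcl6* against Silica without Silica replicate 3 (0.060) or Silica + ATL-III replicate 2 (0.081) and against Control without Control replicate 1 (0.062) or 3 (0.11) or Silica + ATL-III replicate 2 (0.10), and *Vpreb3* without Control replicate 2 (0.061) or Silica + ATL-III replicate 2 (0.063).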

How the data were processed

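Poly(A) RNA of whole lung was sequenced in 9 libraries, 3 per group. Raw gene counts and FPKM were deposited by the authors in 1 table; the submitters' processing notes name cutadapt 1.9.1, HISAT2 2.0.1, HTSeq 0.6.1 and mm10, while neither annotation release nor strand setting is given in the sources used here. Recomputed from counts, lengths and totals, the deposited FPKM agreed within 0.006 for 100% of values. Coordinates and sequences come from GENCODE M21 by gene ID; the deposited starts and ends equalled it for 0 of 136 members (the chromosome for all 136), so the gene models counted may differ.

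The main test was edgeR 4.0.16 (quasi-likelihood F test, TMM, R 4.3.3) on the counts of all 9 libraries in 1 fit of 3 group means with 6 residual degrees of freedom, for genes with at least 10 counts summed, with Benjamini-Hochberg adjustment over 24728 genes and a threshold of 0.05; it was tested on simulated data. DESeq2 1.42.0, limma 3.58.1 on log2(FPKM + 0.5) and log2(FPKM + 0.1), other scalings, filters, a replicate block and leaving out each library were alternatives. Libraries of 1 group differed by more than counting noise (lowest chi-square per degree of freedom 6.44). Deviations from the group mean correlated at 0.1011, 0.1567 and 0.1472 between same-numbered Control and Silica libraries. Same-numbered pairs with Silica + ATL-III gave -0.2032 to -0.016. Different-numbered pairs over all groups ran from -0.2036 to 0.2014, so the values do not settle whether the numbers pair. The replicate block is therefore given only as an alternative. Members and lists were chosen with earlier results of these data known. Named are the constant regions and *Jchain*, the 6 V segments of highest mean CPM, per comparison up to 5 called segments per direction with the smallest p and no overlap, and the 4 V segments with the largest part of their counts in 1 library among those with at least 200 counts.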

Additional observations from a re-analysis of the deposited data

How the results depend on the processing

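The 2 members called higher in Silica against Control became 14 with genes of at least 1 count, 4 with the replicate block, 9 with the block and the 6 libraries compared (an alternative added after seeing the data), and 2 to 6 with 1 library left out. The 0 called lower became 21 with at least 1 count, 1 with DESeq2, 2 with the block and the 6 libraries, and 0 to 3 with 1 library left out. In Silica + ATL-III against Silica, the 0 higher became 2 with at least 1 count, and 1 with limma on log2(FPKM + 0.1), with the 6 libraries alone and with the block, and 0 to 1 with 1 library left out; the 11 lower became 28 with at least 1 count and 2 to 16 with 1 library left out. In Silica + ATL-III against Control, the 0 higher became 5 with at least 1 count and 0 to 1 with 1 library left out; the 8 lower became 43 with at least 1 count, 5 with the robust fit, 5 with the 6 libraries alone, and 2 to 17 with 1 library left out. With at least 1 count edgeR tested 33325 genes and called 11.3%, 12.9% and 10.4% of them in the 3 comparisons, against 9.56%, 13.7% and 10.3%; the cause was not tested. In that fit the SE of *Jchain* in Silica against Control was 0.15, against 0.65 in the main analysis, and its adjusted p was 5.5e-24, so its counts of calls are of doubtful meaning. For the other alternatives the share of all genes called was not counted.

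The log2 ratio of summed immunoglobulin CPM in Silica against Control, 0.42, ran from 0.0015 to 1.58 with 1 library left out, and was -0.0378 from FPKM and -0.495 from V segments alone; in Silica + ATL-III against Silica it moved from -1.46 to -0.759 with V segments alone. *Ighg2c* in Silica against Control ran from -2.04 to 3.5 with 1 library left out and reversed to the latter without Control replicate 3. In the 9-library fit the replicate block changed, among the genes named, the calls of *Jchain* and *Mzb1* in Silica against Control, *Iglc1* and *Iglv3* in Silica + ATL-III against Silica, and *Iglc3*, *Pigr* and *Ccr10* in Silica + ATL-III against Control, and no other. With 3 libraries a group, low counts limit most V and J segments.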

Other observations

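After silica the immunoglobulin signal shifted between kinds of member. *Jchain* FPKM divided by *Igkc* FPKM was 0.146, 0.12 and 0.167 in Control, 0.577, 0.213 and 0.274 in Silica, and 0.15, 0.186 and 0.193 in Silica + ATL-III, so that the 3 Silica libraries lay above the 6 others. The heavy V segments made up 5.98%, 5.71% and 9.73% of V segment counts in Control, 4.19%, 4.15% and 3.42% in Silica, and 7.42%, 9.55% and 5.85% in Silica + ATL-III, with Silica below the 6 others. The lambda V segments made up 23.1%, 34.7% and 13.8% in Control, 34.3%, 28.3% and 28.0% in Silica, and 20.3%, 12.7% and 20.7% in Silica + ATL-III. Here Silica lay above Silica + ATL-III and overlapped with Control. These ratios were picked out after their values were seen, and no test was run on them.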
